A study of Mus musculus with 48 samples.

Results

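The cytoplasmic ribosomal protein genes were followed through 48 libraries of the mouse thoracic mammary gland. A gene was taken as a member if its row was protein-coding and its symbol was Rpl or Rps followed by a digit, or Rplp0, Rplp1, Rplp2 or Rpsa, with pseudogene symbols and the kinases named Rps6k left out. That gave 86 of the 55487 genes in the table, of which 21823 were protein-coding. The members comprised 43 proteins of the large subunit, 31 of the small subunit, the 3 stalk proteins Rplp0, Rplp1 and Rplp2, 8 variants or tissue-restricted paralogs, and Rps19bp1, which shares only the name, since it encodes a protein that binds Rps19. The rule uses symbols and biotype and no measured value, and 85 passed the filter on low values (at least 1 TPM, a transcript abundance scaled to the same total in each library, in at least 3 libraries). Rpl10l, an intronless paralog known from the testis, was listed at 0 in every library and was not tested.

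All mice carried MMTV-rtTA, a doxycycline-dependent activator under the mouse mammary tumour virus promoter, which is active mainly in mammary epithelium, with either tet-op-Esr1 (estrogen receptor alpha) or tet-op-CYP19A1 (aromatase, which makes estrogens). For each genotype there were 3 libraries in each of 8 groups: uninduced at 12, 18 and 24 months of age, induced for 1 week at 12 and 18 months, induced for 6 or 12 months at 24 months, and induced for 18 months at 30 months. The uninduced controls carried both transgenes too. A transgene's action and that of the inducing drug cannot be told apart, and whole glands were used, so a change in the cells present and a change in RNA per cell cannot be told apart either. The titles name biological replicates without saying that each was a separate mouse, and each p-value below therefore reflects variation among the deposited libraries.

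A cytoplasmic ribosome is built from a small subunit, which reads the mRNA, and a large subunit, which joins amino acids, with about one copy of each protein in every particle. Ribosomal protein mRNAs are among the most abundant in a growing cell, and their translation is controlled together through a run of pyrimidines at their 5′ end, the terminal oligopyrimidine (TOP) motif, which responds to mTOR. The genes have left very many processed pseudogenes, intronless copies made by reverse transcription, across mammalian genomes, and a short read from such a copy can be identical to one from the gene.

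The starts of member transcripts are shown because the TOP run is the feature by which the family is known to be regulated together. The RefSeq promoter table (GRCm38.p6) held 66 of the 86 members. Each line gives 20 bases before the annotated start and 10 from the start on, on the gene's strand, with the run of pyrimidines that begins at the start in capitals.
Rps18: acttatacgtcacttccgctCTCTCTTCCa
Rpl35a: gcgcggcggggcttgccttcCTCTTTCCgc
Rps27: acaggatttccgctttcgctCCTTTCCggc
Rps27rt: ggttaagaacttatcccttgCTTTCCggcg
Rps27l: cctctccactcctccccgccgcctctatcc
A C at the start followed by at least 4 pyrimidines was found at 14 of the 66 members (21.2%), against 3.01% of all 27025 genes in that table. Within 10 bases either side of the start it was found at 60.6% of the members and 34.4% of all genes. Rps18, Rpl35a, Rps27 and Rps27rt hold the run at the annotated start and Rps27l does not. The match is a description of letters at annotated starts, and only the sense strand was searched.

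Values are given on the rescaled TPM scale, each gene's TPM per 1000000 TPM of nuclear protein-coding genes other than Lars2. Deposited TPM were not compared directly because ribosomal RNA rows took between 0.02% and 67.19% of a library, over 10% in 2 Esr1 and 7 CYP19A1 libraries. At least 50 M reads per library are stated, and the reads behind each TPM value are unknown. Markers of mammary luminal cells, basal cells, milk and adipocytes were present, and so were those of skeletal muscle, whose 16 listed genes took from 0.1% to 17.47% of the rescaled total. The submitters titled the libraries of 24 and 30 months in a different way from the younger ones, and age cannot be told apart from whatever else separated these sets.

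The 86 members together took from 4.97% to 11.3% of the nuclear protein-coding total, with a median of 7.29%. The share was 8.43% in the median Esr1 library (range 6.24% to 11.3%, 24 libraries) and 6.54% in the median CYP19A1 library (4.97% to 9.45%, 24 libraries). Among uninduced glands the models overlapped, at 6.24% to 11.3% in Esr1 and 5.98% to 9.45% in CYP19A1. After 1 week of induction they did not, at 8.39% to 10.33% and 5.95% to 8.04%, nor after long induction, at 6.86% to 9.36% and 4.97% to 6.77%.

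The spread inside a group was largest at 18 months in uninduced Esr1 glands, where the family took 11.22%, 11.30% and 6.29%. The library at 6.29% had 17.47% of its total on the muscle list, against 1.5% and 2.72% in the others. In uninduced Esr1 glands at 12 months the family took 6.49%, 10.63% and 8.47%, beside 6.93%, 0.72% and 5.43% on the muscle list. The lowest library of all, CYP19A1 at 24 months after 6 months of induction, replicate 1, stood at 4.97% beside 15.53% on the muscle list. CYP19A1 glands at 12 months after 1 week of induction went otherwise. There the family took 6.37%, 7.65% and 5.95%, beside 6.04%, 5.24% and 0.1% on the muscle list. The part of muscle content in these levels was not tested.

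**Figure D1:**
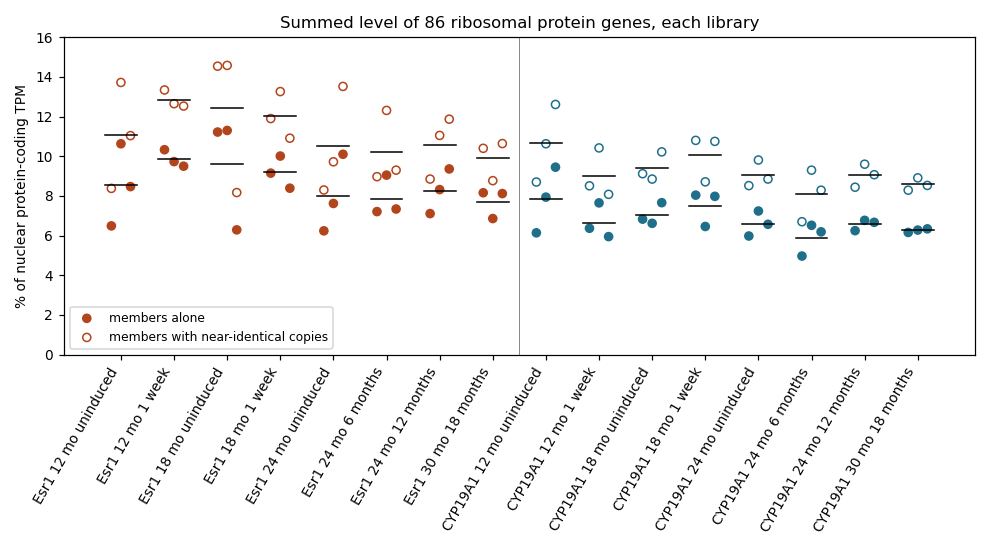
Summed level of the 86 members as a percentage of nuclear protein-coding TPM (y axis) in each library of the 16 groups (x axis), Esr1 in red-brown and CYP19A1 in blue; filled points are the members alone, open points the members with their near-identical copies, and black bars group means of 3 libraries. Every long-induced CYP19A1 library lies at or below 6.77% for the members alone, and every long-induced Esr1 library at or above 6.86%.

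Most members kept a steady ratio to the rest of the family. The standard deviation over the 48 libraries of a member's log2 level relative to the family sum was under 0.3 for 70 of the 85 members with a value above 0. It was smallest for Rpl14 of the large subunit, at 0.06, and was 0.07 for Rpl4 and Rpl22 of the large and Rps9 of the small subunit. The most abundant rows were Rpl13a, a protein known for its part in interferon-induced translational silencing, at a mean of 2186 rescaled TPM over the libraries, Rpl41, the smallest ribosomal protein, at 2174, the stalk protein Rplp1 at 2065, Rpl7 at 1971 and Rps27 at 1899. The least abundant ribosomal proteins outside the variants were Rpl12 at 55.8, Rpl5, which carries 5S rRNA with Rpl11, at 85.4, and Rpl10, which completes the large subunit, at 164.

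A few members moved far more than the rest. The same standard deviation was 2.26 for Rps2, 1.62 for Rpl34, 1.05 for Rps18, 0.71 for Rpl35a and 0.60 for Rps7, all of which belong to every ribosome. It was also large for 3 variants, at 1.81 for Rpl3l, 0.84 for Rpl39l and 0.63 for Rps27rt.

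The rows of near-identical copies were read next. In GENCODE M21 transcripts, 618 genes at other loci were at least 95% identical to a member over at least 150 bases, they belonged to 79 members, and 11 of them were annotated as protein-coding. A read of 75 bases from a part without a difference fits both a gene and its copy. The stretches below show bases that do differ. Each is 60 bases of the sense strand of the coding sequence, chosen to hold the most positions that differ, which are in capitals.
Rps18: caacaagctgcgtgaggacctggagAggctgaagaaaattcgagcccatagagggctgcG
Gm10260: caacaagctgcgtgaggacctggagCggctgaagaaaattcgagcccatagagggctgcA
Gm11361: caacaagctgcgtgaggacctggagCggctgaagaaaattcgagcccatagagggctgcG
Rpl34: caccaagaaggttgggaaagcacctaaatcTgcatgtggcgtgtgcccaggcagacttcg
Rpl34-ps1: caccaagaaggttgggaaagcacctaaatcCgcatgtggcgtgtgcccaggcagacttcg
Rpl35a: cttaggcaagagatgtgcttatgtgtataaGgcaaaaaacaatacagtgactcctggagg
Rpl35a-ps2: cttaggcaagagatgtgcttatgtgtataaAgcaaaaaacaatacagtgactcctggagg
Rpl30: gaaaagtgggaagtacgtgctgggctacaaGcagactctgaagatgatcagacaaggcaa
Gm12191: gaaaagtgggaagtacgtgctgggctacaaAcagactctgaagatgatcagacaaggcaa
Counted from the A of the start codon, Gm10260 differs from Rps18 in the coding sequence by T186C, A337C, G371A and G431A, and Gm11361 by T11A, A171C and A337C. Rpl34-ps1 differs from Rpl34 by T132C and C318G, Rpl35a-ps2 from Rpl35a by G156A, and Gm12191 from Rpl30 by G96A. In mm10, Rps18 lies at chr17:33951999-33956001, while Gm10260 (chr13:97760072-97760632) and Gm11361 (chr13:28257528-28258134) lie on another chromosome. Rpl34 is at chr3:130726831-130730398 and Rpl34-ps1 at chr6:71124610-71124963. Rpl35a is at chr16:33056453-33060189 with Rpl35a-ps2 at chr1:181241988-181242320, and Rpl30 is at chr15:34440505-34443640 with Gm12191 at chr11:49678710-49679057. The copies shown are not the only ones, since Rps18 and Rpl34 have 5 each, Rpl35a has 14 and Rpl30 has 12. Rpl35a-ps3, not shown, also differs from Rpl35a by 1 base in the aligned part.

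Of all windows of 75 bases in the aligned part, 48.8% were identical between Rps18 and Gm10260, 56.7% between Rps18 and Gm11361, 60% between Rpl34 and Rpl34-ps1, 71.0% between Rpl35a and Rpl35a-ps2 and 72.6% between Rpl30 and Gm12191. Between Rps2 and its most abundant copy, Rps2-ps10, 64.5% were identical. For Rps12 and Rps12-ps3 every window was identical. A level for one row of such a pair therefore depends on how RSEM divided the reads that fit both.

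The division between Rps2, a small-subunit protein at the mRNA entry side, and its copies differed between libraries by almost the full scale. Rps2 had between 0.6% and 2.1% of the sum of itself and its copies in the 24 CYP19A1 libraries, and between 1.2% and 2.6% in the 12 Esr1 libraries of 12 and 18 months. In the 12 Esr1 libraries of 24 and 30 months it had 1.0% and 1.1% in 2 libraries, 40.2% to 45.0% in 5, and 90.7% to 97.7% in 5. No library lay between these 3 levels. The 3 libraries induced for 6 months gave 96.7%, 1.0% and 45.0%, and the 3 induced for 18 months gave 97.7%, 44.1% and 1.1%. The uninduced libraries of 24 months gave 40.2%, 44.2% and 40.7% and those induced for 12 months 97.2%, 90.7% and 97.1%, so that the levels were mixed in 2 of these 4 groups and alike within the other two.

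The copy moved the other way. Rps2-ps10 stood at 14.25, 139.94 and 27.87 rescaled TPM in Esr1 glands induced for 12 months, where Rps2 stood at 1371.52, 1618.67 and 1831.95. In CYP19A1 glands of the same age and induction Rps2-ps10 stood at 1535.51, 1577.12 and 1671.62 and Rps2 at 23.17, 26.18 and 17.95. The sum of Rps2 and its copies ranged from 1108 to 1999 over the 48 libraries, and its standard deviation relative to the family fell from 2.26 to 0.23.

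Rpl34, a large-subunit protein, also had separated levels. Its own row had 2.1% to 3.6% of the sum with copies in Esr1 libraries of 12 and 18 months, 22.4% to 35.7% in all 24 CYP19A1 libraries, and in Esr1 libraries of 24 and 30 months 38% to 40.8% in 7 and 96.0% to 99.1% in 5. Rps18, at the head of the small subunit, had 15.3% to 26.9% in CYP19A1 libraries. In Esr1 libraries it had 22.9%, 24.6% and 25.9% in 3, and 69.1% to 99.9% in the other 21.

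Rpl35a, of the large subunit, split by model with no overlap, at 22.4% to 34.0% in CYP19A1 and 82.6% to 98.6% in Esr1. Rpl30, also of the large subunit, varied within CYP19A1. Its own share was 24.0% to 28.8% in the 9 long-induced libraries and 42.8% to 43.8% in the 3 uninduced ones of 24 months, and in the 12 libraries of 12 and 18 months it lay between 25.6% and 78.3%. Rpl30 in Esr1 libraries lay between 65.9% and 86.1%.

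**Figure D2:**
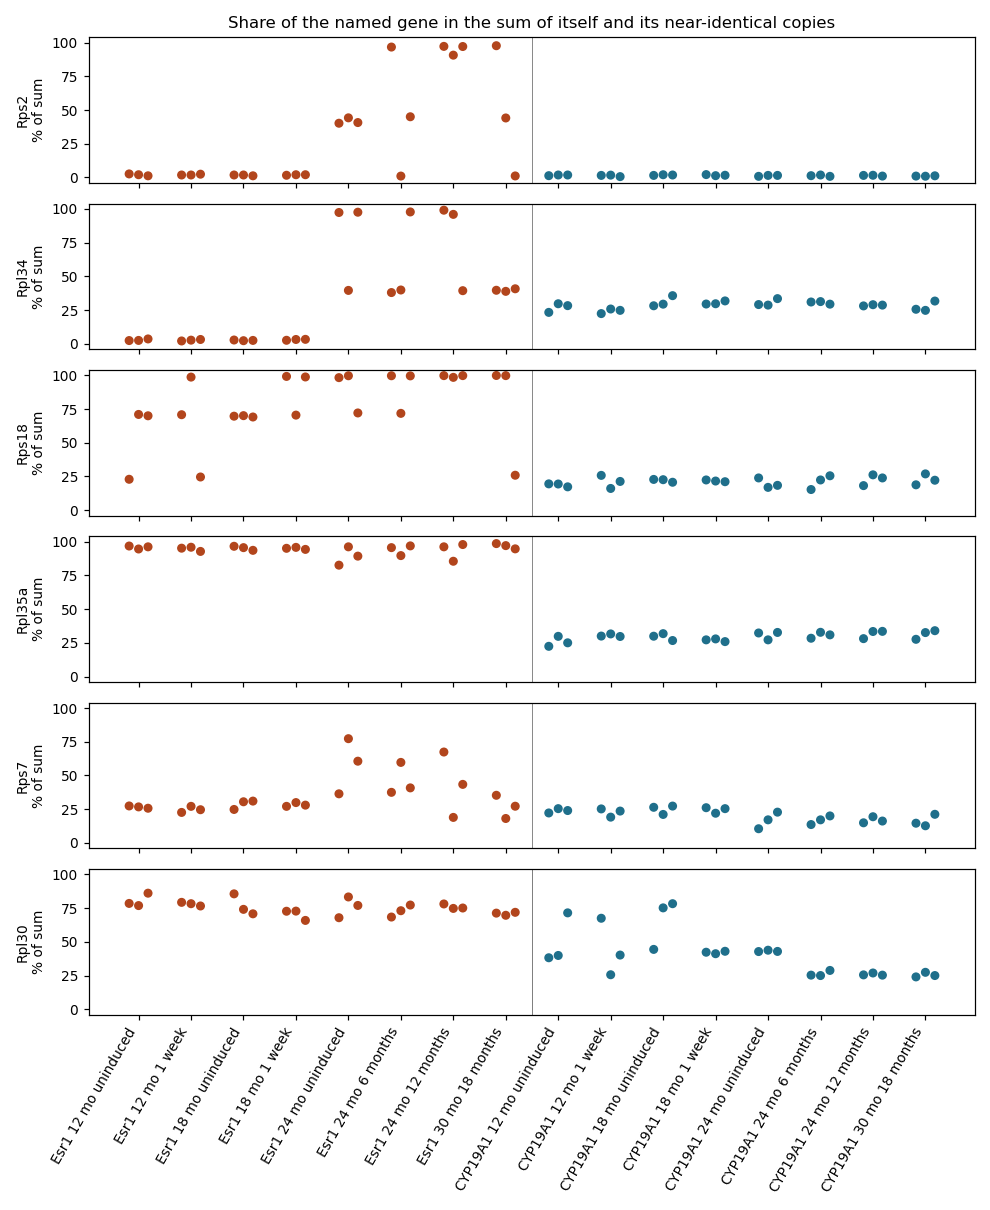
Percentage that the named gene has of the sum of itself and its near-identical copies (y axis, one panel per gene) in each library of the 16 groups (x axis), Esr1 in red-brown and CYP19A1 in blue. Rps2 lies near 0 in every CYP19A1 library and at 3 separate levels in Esr1 libraries of 24 and 30 months, and Rpl35a lies at or above 82.6% in Esr1 and at or below 34.0% in CYP19A1.

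Over the family, 37 members had at least 90% of their sum in every library, 28 had a share that ranged over more than 20 percentage points, and 14 of the 85 with a value above 0 had a median share under 50%. The low rows of Rpl12, Rpl5 and Rpl10 belong to the last set. Rpl12 had a median of 3.5% of its sum, Rpl5 6.0% and Rpl10 9.1%, and with copies added their median levels were 1455, 1294 and 1655 rescaled TPM. With copies added, the number of members with a standard deviation under 0.3 relative to the family rose from 70 to 82. Rps18 fell from 1.05 to 0.09, Rps12 from 0.58 to 0.08 and Rpl35a from 0.71 to 0.15. Not every member fell: Rps29 rose from 0.12 to 0.19, Rpl21 from 0.12 to 0.17 and Rps14 from 0.14 to 0.17. Rpl3l, Rpl39l and Rps27rt have no such copy and gave 1.80, 0.84 and 0.62.

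With copies added the family took 8.17% to 14.58% in Esr1 libraries (median 11.04%) and 6.7% to 12.61% in CYP19A1 libraries (median 8.88%). After 1 week of induction the models did not overlap, since Esr1 libraries lay between 10.91% and 13.34% and CYP19A1 libraries between 8.08% and 10.8%. After long induction they overlapped, at 8.77% to 12.31% against 6.7% to 9.6%.

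The models were compared in 3 sets of libraries that share none: uninduced (9 against 9), induced for 1 week (6 against 6) and long induced (9 against 9). Family members were mostly lower in CYP19A1. Of 85 tested members, 1 was called higher and 17 lower in uninduced glands (21.2%, against 20.0% of all 20209 genes), 1 higher and 45 lower after 1 week (54.1% against 19.6%), and none higher and 15 lower after long induction (17.6% against 8.02%). On this scale the share called in uninduced glands was near that of all genes. On a median-of-ratios scale the counts were 70, 74 and 43 (82.4%, 87.1% and 50.6%, against 16.7%, 23.5% and 9.83% of all genes), and on deposited TPM 7, 82 and 8 (8.24%, 96.5% and 9.41%, against 2.95%, 46.5% and 4.15%). Directions differed: of all genes called, 86.5%, 62.5% and 59.5% were higher in CYP19A1, a split that depends on the scale (33.2%, 2.6% and 71.6% on deposited TPM and 54.2%, 49.5% and 47.5% by median of ratios). The median log2 difference of members was −0.22, −0.40 and −0.27, beside 0.14, 0.06 and 0.05 for all genes. The counts rest on single libraries: leaving out 1 gave 7 to 50 calls in uninduced glands, with 50 without the muscle-rich Esr1 library of 18 months, 17 to 51 after 1 week, with 17 without CYP19A1 at 18 months replicate 2, and 12 to 18 after long induction. The share of all genes called with 1 library left out is not given here. In the 1-week comparison ribosomal RNA took 36.71% to 49.8% of TPM in all 3 CYP19A1 libraries of 12 months and at most 0.07% in Esr1. The part of ribosomal RNA in the result was not tested.

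By subunit, after 1 week 25 of 43 large-subunit members and 15 of 31 small-subunit members were called lower. In uninduced glands these counts were 7 and 8, and after long induction 7 and 6. Called in either direction were 18.6%, 60.5% and 16.3% of large-subunit and 25.8%, 48.4% and 19.4% of small-subunit members (uninduced, 1 week and long induced). Among the 37 members with at least 90% of their sum in every library, 4 were called lower in uninduced glands, 19 after 1 week and 5 after long induction. These were 10.8%, 51.4% and 13.5%, against 20.0%, 19.6% and 8.02% of all genes. The medians of the 37 were −0.20, −0.37 and −0.23, and none was called higher.

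Each called difference of more than 1 on the log2 scale belonged to a member split with copies, and an unsplit member, Rpl3l, differed by 1.41 after 1 week and did not pass. Rps2 was lower in CYP19A1 by −4.60 on the log2 scale after long induction (SE 0.57, limma adjusted p = 3.18e-07). With copies summed the difference was −0.04 (adjusted p = 0.87). Rps18 differed by −2.02, −2.20 and −2.24 in uninduced, 1-week and long-induced glands, and with copies by −0.28, −0.48 and −0.32, of which the 1-week value passed (adjusted p = 0.0323). Rpl35a differed by −1.70, −1.91 and −1.56, each adjusted p at or under 2.94e-10, and with copies by 0.01, −0.18 and 0.03, none of which passed. Rpl30 differed by −0.65, −0.92 and −1.43, and with copies by −0.05, −0.09 and 0.07, none of which passed.

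Rpl34 changed direction among the comparisons. Its own row was higher in CYP19A1 in uninduced glands (log2 difference 1.31, adjusted p = 3.56e-06) and after 1 week (2.44, 5.05e-10) and lower after long induction (−1.41, 8.75e-07). The uninduced value is a mean of log2 differences at 3 ages: Esr1 libraries gave 14.96 to 32.95 rescaled TPM at 12 and 18 months and 285.22 to 936.61 at 24 months, around the 118.19 to 205.72 of CYP19A1. With copies summed it was lower in CYP19A1 in all 3 comparisons, by −0.53, −0.78 and −0.52 (adjusted p 0.00335, 0.000741 and 0.00677).

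**Figure D3:**
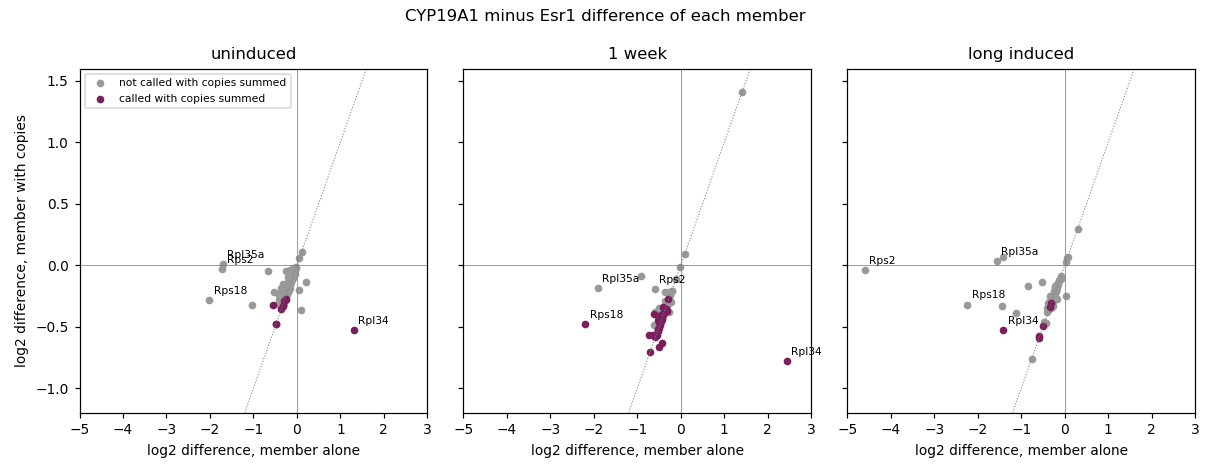
Log2 difference CYP19A1 minus Esr1 of each of 85 members, from its own row (x axis) and with its near-identical copies summed (y axis, with a narrower scale), in uninduced, 1-week and long-induced glands; purple points are called with copies summed and the dotted line marks equal values. Rps18 and Rpl35a lie far left on the x axis in all 3 panels, and Rps2 in the uninduced and long-induced ones, while on the y axis they lie between 0.03 and −0.48, and Rpl34 is below 0 on the y axis in all 3 panels.

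With copies summed, 8, 41 and 6 members were called in the 3 comparisons, each lower in CYP19A1, beside 20.0%, 19.7% and 7.87% of all genes. Passing in at least 2 of the 3 with the same sign was taken as line-specific. Their own rows gave 20 such members, and the summed values gave 9, of which 8 were among the 20. The share of all genes that met this rule is not given here, so these counts have no background beside them. The own rows gave 9 on deposited TPM and 70 on the median-of-ratios scale. The 9 with copies summed included Rpl11, Rpl22, Rpl24, Rpl27, Rpl34, Rplp1, Rps14 and Rps27l, each lower in CYP19A1. Members line-specific by their own row and not with copies summed were Rps2, Rps18, Rpl35a, Rps7, Rpl30, Rpl29, Rps26, Rpl15, Rps3a1, Rps23, Rpl36a and Rps20.

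Rps14, of the small-subunit platform, kept at least 96.0% of its sum in every library and differed by −0.48, −0.59 and −0.60 in the 3 comparisons (adjusted p 0.00797, 0.00886 and 0.00198). Without the libraries over 10% ribosomal RNA the uninduced value was −0.41 and did not pass. On deposited TPM the long-induced value was −0.48 (adjusted p = 0.288), and relative to the family sum the differences were −0.22, −0.15 and −0.25, of which the 1-week value did not pass (0.0808). Its mean was 891 ± 178 in CYP19A1 and 1254 ± 307 in Esr1 rescaled TPM in uninduced glands (SD, n = 9 each), 901 ± 143 and 1344 ± 127 after 1 week (n = 6 each), and 762 ± 86.8 and 1159 ± 178 after long induction (n = 9 each). The models did not overlap after 1 week or after long induction, and overlapped in uninduced glands. Rplp1, a stalk protein that recruits elongation factors, differed by −0.36, −0.53 and −0.51, and its partner Rplp2 by 0.06, −0.02 and −0.09, none of which passed. The 95% interval of the Rplp1 difference after long induction was −0.76 to −0.26. Relative to the family sum Rplp1 differed by −0.10, −0.10 and −0.16, of which only the long-induced value passed (0.0433).

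Rps27l, a paralog of Rps27 known as a p53 target, has no near-identical copy. It differed by −0.48, −0.46 and −0.31 (adjusted p 0.000229, 0.00382 and 0.0252). Relative to the family sum the differences of Rps27l were −0.23, −0.02 and 0.04, and none passed (adjusted p 0.0683, 0.901 and 0.75). On deposited TPM the long-induced value was −0.18 (adjusted p = 0.683). Uninduced glands at 12 months gave 240.51, 272.49 and 238.13 rescaled TPM in Esr1 and 191.96, 185.22 and 211.77 in CYP19A1, with no overlap. Over all uninduced libraries the models overlapped, since Esr1 at 24 months gave 171.62, 195.44 and 275.45. Rps27 itself differed by −0.13, −0.28 and −0.18, and none of these passed.

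Rpl11, which with Rpl5 and 5S rRNA binds Mdm2, differed with copies summed by −0.34, −0.67 and −0.58 (adjusted p 0.0353, 0.00136 and 0.000907). Its own row held 49.9% to 77.1% of that sum. Relative to the family sum that row differed by −0.05, −0.07 and −0.26, of which only the long-induced value passed (0.00878). Rpl22, an RNA-binding protein of the large subunit, had differences of −0.23, −0.38 and −0.34 (adjusted p 0.137, 0.0433 and 0.0482). Its copy-summed values were the same to 2 decimals. Relative to the family sum its differences were 0.03, 0.06 and 0.01, and none passed. Rps26, at the mRNA exit, differed by −0.32, −0.71 and −0.47 in its own row (adjusted p 0.112, 0.00609 and 0.0428), and with copies summed only the 1-week value passed (0.12, 0.00814 and 0.0525).

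In the 3 comparisons 20.0%, 19.6% and 8.02% of all genes were called. Of the 17 listed members with documented roles outside or at the edge of general translation, 1, 10 and 3 were called lower in them and none higher. After 1 week these included Rps6, the substrate of S6 kinases, at −0.59, Rps3, also known from DNA repair, at −0.58, Rps27a, made as a fusion with ubiquitin, at −0.62, Rpl39 at −0.56, Rps28 at −0.54, Rplp0 at −0.41 and Rpsa, also known as a laminin receptor, at −0.35. Rpl13a at −0.33, Rps19, mutated in Diamond-Blackfan anaemia, at −0.35, Rpl38 at −0.31, Rpl41 at −0.36, Rpl5 at −0.43 and Rpl10 at −0.28 did not pass in that comparison. All these are values of own rows. Rps6 had 51.7% to 92.5% of its sum with copies, Rps27a 56.6% to 80.4% and Rps28 66.7% to 99.5%. Rps3, Rpl39 and Rplp0 had at least 90.9% in every library. Rpl5 and Rpl10 had medians of only 6.0% and 9.1%. Differences with copies summed are not given here for these members. Among ribosomal proteins with other names, Rack1 differed by −0.53 after 1 week and was called, and Fau by −0.20, which did not pass.

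Other lists and markers are given beside these differences. In the 3 comparisons milk protein genes had medians of −2.95, −5.36 and −4.55, luminal epithelium −0.30, −1.04 and −0.58, white adipocytes 0.70, 0.90 and 0.20, and skeletal muscle −0.55, 1.09 and 0.30 on the log2 scale. Of 7 milk protein genes 1, 6 and 6 were called lower, of 11 adipocyte genes 7, 8 and 1 were called higher, of 13 luminal genes none, 7 and 1 were called lower (1 was higher in uninduced glands), and of 16 muscle genes none was called. Of 6 endothelial genes 5, 5 and 2 were called higher. After 1 week 6 of 10 T cell genes and 5 of 8 basal and myoepithelial genes were called lower. The milk protein score is the mean log2(rescaled TPM + 1) of the 7 genes. After 1 week it lay between 10.32 and 13.59 in Esr1 and between 5.35 and 8.18 in CYP19A1 libraries. The part of cell content in the family's differences was not tested.

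Other genes of translation were counted in the same comparisons, where 20.0%, 19.6% and 8.02% of all genes were called. Of 48 ribosome biogenesis genes, 4 were called higher and 3 lower in uninduced glands, none and 17 after 1 week, and 1 and 5 after long induction, with medians of 0.04, −0.24 and −0.08. Fbl, the methylase of ribosomal RNA, differed by −0.70 after 1 week, Npm1 by −0.66 and Taf1d, a subunit of the RNA polymerase I selectivity factor, by −1.65. Of 36 initiation factors, 3 were called higher and 5 lower in uninduced glands, 2 and 6 after 1 week, including Eif3k at −0.57, and none and 3 after long induction. Of 10 genes listed under translation elongation by their names, 2 were called lower after 1 week, Eef1b2 at −0.56 and Eef1e1 at −0.43, and none in the other comparisons. Of 20 other TOP transcripts 2 were called lower in uninduced glands, 1 higher and 5 lower after 1 week, and none after long induction. The 78 mitochondrial ribosomal protein genes had medians of −0.04, 0.07 and 0.11, with 3 higher and 6 lower, 4 and 4, and 8 and 4 called.

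Induction was compared with the uninduced group of the same age and model. None of 85 members was called in any of the 8 comparisons by limma (with array quality weights 8, 3, 1 and 1 were called in Esr1, in the order that follows), and 2, 0, 2 and 1 had an unadjusted p under 0.05 in Esr1 (1 week at 12 and at 18 months, 6 and 12 months) and 2, 0, 1 and 1 in CYP19A1. Without weights, 0% of all genes were called in 6 of the 8 comparisons, 0.00990% for 12 months of Esr1 and 0.00495% for 1 week of CYP19A1 at 18 months. An unadjusted p under 0.05 was found for 1945, 314, 460 and 412 of all 20209 genes in Esr1. In CYP19A1 these counts were 1080, 548, 392 and 251. The median log2 change of members was 0.23, −0.01, −0.00 and 0.05 in Esr1 and −0.21, 0.09, −0.16 and 0.01 in CYP19A1. Each value shares its control with no other except at 24 months, where both durations were set against the same uninduced libraries.

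At 12 months, 83 of 85 members had a 1-week value above 0 in Esr1 and 81 a value below 0 in CYP19A1, with none called in either and all-gene medians of 0.15 and 0.00. On the median-of-ratios scale the Esr1 median was 0.06, with 70 above 0. The difference between the models in the response to 1 week, over both ages, was called for no member by limma and for 0% of all genes. It had an unadjusted p under 0.05 for 0 members and for 1477 of all 20209 genes. Its median was −0.18 beside −0.13 for all genes. The difference in the response to long induction was likewise called for no member and for 0% of all genes. It had an unadjusted p under 0.05 for 2 members and for 434 of all genes, and a median of −0.10.

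Age was compared in uninduced glands at 24 against 12 months. In Esr1, 2 members were called, both higher, beside 1.34% of all genes: Rps2 with 681.71 ± 150.10 against 26.95 ± 8.19 rescaled TPM (log2 change 4.63, SE 0.98, adjusted p = 0.00884) and Rpl34 with 580.10 ± 330.04 against 24.16 ± 8.20 (4.42, SE 0.32, 3.45e-12; SD, n = 3 each). The Rpl34 values were 15.31, 25.67 and 31.49 at 12 months and 518.46, 285.22 and 936.61 at 24 months. With copies summed neither passed, and Rpl34 gave 641.3, 1039.83 and 881.36 at 12 months and 532.36, 720.49 and 959.88 at 24 months, which overlap.

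No other member was called with age in these fits. In CYP19A1 no member was called by limma, beside 0.747% of all genes. An unadjusted p under 0.05 was found for 7 members and for 3582 of all 20209 genes. Medians were −0.13 in Esr1 and −0.25 in CYP19A1, beside −0.08 and −0.11 for all genes. On deposited TPM the CYP19A1 median turned to 0.26, beside 0.22 for all genes, and 1 member was called higher. With array quality weights 13 members were called with age in Esr1 and 14 in CYP19A1. The share of all genes called with weights is not given here. From 24 to 30 months in long-induced glands no member was called in either model, beside 0.124% (Esr1) and 0% (CYP19A1) of all genes. An unadjusted p under 0.05 was found for 4 members in Esr1 and 1 in CYP19A1, and for 1923 and 318 of all genes. In the test of whether the age change differed between models, Rpl34 was called (−4.43, adjusted p = 2.15e-07) beside 0.0594% of all genes, and with copies summed it was 0.04 and did not pass.

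**Figure D4:**
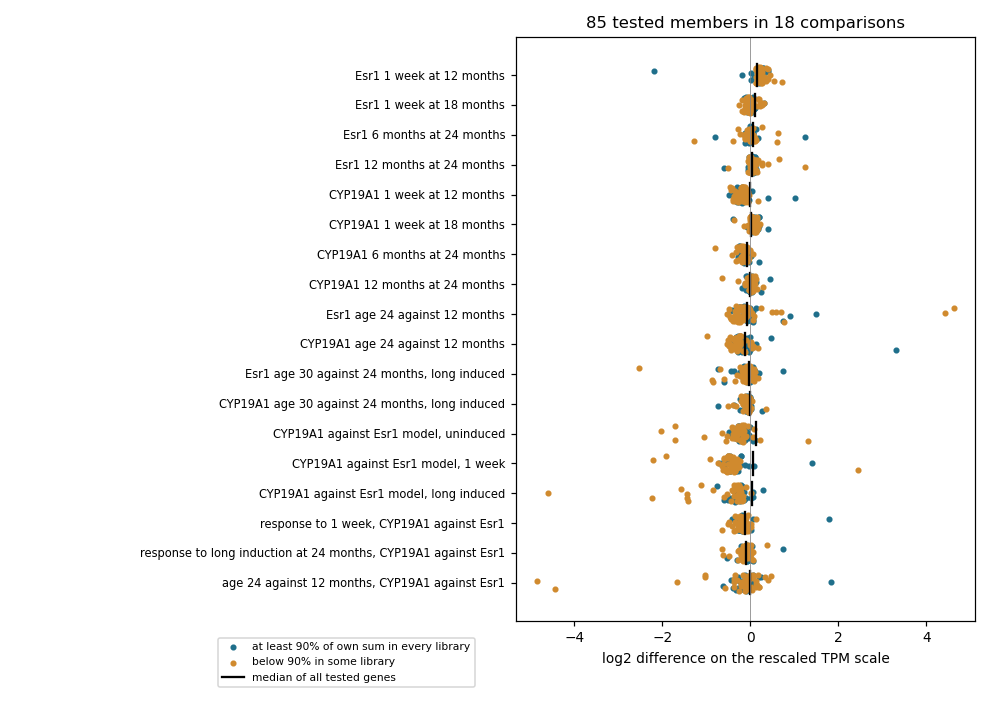
Log2 difference (x axis) of each of the 85 tested members in each of the 18 comparisons (y axis), in blue for the 37 members with at least 90% of their own sum in every library and in ochre for the others; black bars mark the median of all tested genes. Points far from the family are mostly ochre; the blue points beyond 1 on either side are Rpl3l and, in Esr1 at 6 months, Rpl39l.

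Among the variants, Rpl3l, the striated-muscle paralog of Rpl3, ranged from 1.69 to 194.83 rescaled TPM. Acta1, skeletal muscle actin, ranged from 222.48 to 29344.46. On the log2 scale the genes followed each other over 48 libraries, with Pearson's r = 0.98 and Spearman's rho = 0.96 (two-sided permutation p = 1e-05 for each, the smallest the permutations can give). Without the 2 libraries farthest from the Acta1 median r was 0.98. It was 0.99 in the 24 libraries of 12 and 18 months and 0.91 in the 24 of 24 and 30 months, and the adjusted p over these 8 correlations was 1e-05 for each. Rpl3l had 0.11% to 24.25% of the sum of Rpl3l, Rpl3 and copies of Rpl3, with a median of 6.18%.

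**Figure D5:**
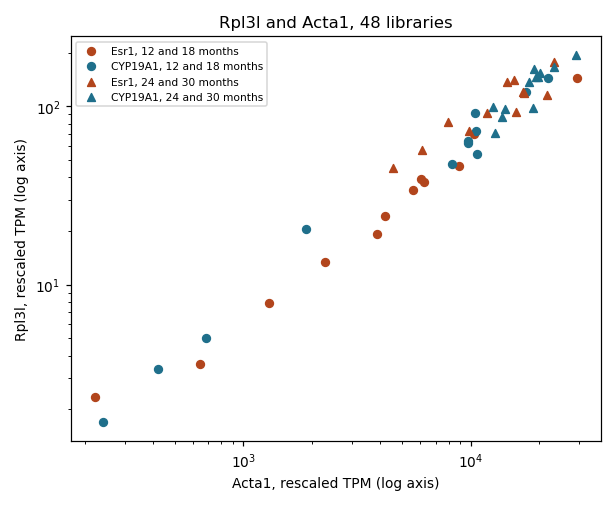
Rpl3l (y axis) against Acta1 (x axis) in rescaled TPM on log axes in 48 libraries; colours mark the model and shapes the age. Points rise together from 1.69 to 194.83 for Rpl3l in both models and both age classes.

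Rpl3l did not pass in any comparison. Its largest change was with age in CYP19A1, from 72.49, 3.36 and 5.03 at 12 months to 154.55, 70.88 and 167.03 at 24 months (log2 change 3.31, SE 0.97, adjusted p = 0.0798), and these overlap. Rpl39l, a paralog of Rpl39 known from male germ cells, was highest in Esr1 glands induced for 6 months, at 17.81, 13.74 and 29.88, against 9.54, 4.89 and 9.19 in uninduced glands of that age. The groups did not overlap, and the change of 1.25 (95% interval 0.28 to 2.22) did not pass (adjusted p = 1.00). After 12 months of induction Rpl39l stood at 11.69, 9.15 and 3.78.

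The remaining variants were as follows. Rps27rt, an intronless relative of Rps27, ranged from 29.20 to 320.56 and passed in no model comparison. Rpl22l1, the paralog of Rpl22, differed by −0.45 after 1 week (adjusted p = 0.0432) and Rpl36al, the paralog of Rpl36a, by −0.46 (0.00298), with no overlap between models in either. Neither passed in the other model comparisons. Rpl7l1 differed by 0.11, −0.21 and 0.07 and Rps19bp1 by −0.03, −0.21 and 0.03, and none of these passed. Rps4l, whose row is not annotated as protein-coding and which is thus no member, was called lower after long induction (−0.65, adjusted p = 0.00537).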

How the data were processed

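The authors deposited TPM for 55487 genes in 48 libraries. Per the labels' protocols, stranded single-end libraries (75 bp) came from total mammary RNA after removal of ribosomal RNA. Per the submitters' processing notes, the tools were STAR 2.7.9a and RSEM 1.3.1, preceded by Trim Galore 0.6.5 and FastQC 0.11.9, with the genome build mm10. The annotation release is not given in the sources used here. TPM keep no depth, so no counting interval is given.

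Deposited TPM were divided by the summed TPM of nuclear protein-coding genes without Lars2 and given per 1000000 (rescaled TPM). Genes with at least 1 deposited TPM in at least 3 libraries (20209) were fitted as log2(value + 1) with a mean per group over the 48 libraries (limma 3.58.1, R 4.3.3, trended moderated tests, two-sided); a gene was called at a Benjamini-Hochberg adjusted p under 0.05 over all genes. The fit was tested on simulated data. Copies were found with BLAST 2.17.0 on GENCODE M21 transcripts (at least 95% identity, 150 bases and 50% of the shorter transcript); each copy was added to its best member, and 4 that overlap their member's locus were left out. Summing copies was chosen after seeing the data.

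The members and lists were chosen with earlier results of these data known. Named are line-specific members, members called, the variants, members with documented roles, the most and least abundant and the most and least variable; Rps12, Rpl27, Rpl30 by group and the copies were singled out after their values were seen. Alternatives were deposited TPM, median-of-ratios scaling, a pseudocount of 0.1, no filter, array quality weights, leaving out libraries with over 10% ribosomal RNA, fits on the compared groups, a replicate block and leaving out each library. No 2 libraries held identical values. Values of some single genes are not reported here.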

Additional observations from a re-analysis of the deposited data

Results flagged for a closer look

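The change of Rpl34 from 12 to 24 months in uninduced glands differed between the models by −4.43 on the log2 scale (CYP19A1 minus Esr1, 95% interval −5.34 to −3.52, limma adjusted p = 2.15e-07), which marked it for a closer look. Rpl34 went from 24.16 ± 8.20 to 580.10 ± 330.04 rescaled TPM in Esr1 and from 168.01 ± 44.27 to 162.61 ± 3.69 in CYP19A1 (SD, n = 3 each). Over the same libraries its copy Rpl34-ps1 went from 620.67, 1008.29 and 844.68 to 13.11, 429.68 and 20.05 in Esr1, and the difference with copies summed was 0.04.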

How the results depend on the processing

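TPM without counts limit what depth can show, and the copy-split rows rest on the authors' read assignment. Counts of called members follow as uninduced, 1-week and long-induced model comparisons, where the main counts were 18, 46 and 15. They were 7, 82 and 8 on deposited TPM, 70, 74 and 43 on the median-of-ratios scale, and 62, 77 and 68 with array quality weights. Without a filter they were 11, 29 and 13, with only the compared groups 7, 61 and 39, and without libraries over 10% ribosomal RNA 8 in uninduced and 12 in long-induced glands (the 1-week fit had no CYP19A1 library of 12 months left). With copies at 98% identity they were 8, 41 and 7, and at 95% 8, 41 and 6. Not given here is the share of all genes called without a filter or with only the compared groups. The same holds without libraries over 10% ribosomal RNA, with copies at 98% identity and with 1 library left out. Leaving out 1 library gave 7 to 50, 17 to 51 and 12 to 18; the uninduced count was 50 without Esr1 18 months replicate 3 (the library richest in muscle genes), 34 and 7 without Esr1 24 months replicates 1 and 3, 28 and 10 without Esr1 12 months replicates 1 and 2, 9 without Esr1 18 months replicate 2 and 10 without CYP19A1 12 months replicate 1. The 1-week count was 24 and 30 without Esr1 12 months replicates 1 and 2, 20 without Esr1 18 months replicate 2, 28 without CYP19A1 12 months replicate 1 or 3 and 17 without CYP19A1 18 months replicate 2. The median of all genes in the uninduced, 1-week and long-induced comparisons was −0.10, −0.45 and 0.12 on deposited TPM and 0.00, 0.03 and 0.01 on the median-of-ratios scale, and the share of all called genes that were higher was 33.2%, 2.6% and 71.6% on TPM and 54.2%, 49.5% and 47.5% on median-of-ratios. The members' median was negative in the 3 comparisons on each scale, at −0.56, −1.12 and −0.15 on TPM and −0.38, −0.45 and −0.31 on median-of-ratios. In the CYP19A1 age comparison it was 0.26 on TPM against −0.25.

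Array quality weights also gave calls for Esr1 in 8 members at 1 week of 12 months, 3 at 1 week of 18 months, 1 at 6 months, 1 at 12 months, 13 with age and 1 from 24 to 30 months, 14 for CYP19A1 with age, and 1, 1 and 3 for the differences in response to 1 week, long induction and age. The share of all genes called with weights is not given here, for these counts or for those of the model comparisons. With age, Esr1 gave 1 call with only the compared groups and 0 with copies summed at 95% or 98%; CYP19A1 gave 1 on TPM and 0 to 1 when 1 library was left out (1 without the 12-month replicate 1); the age difference between models gave 2 with only the compared groups and 0 with copies summed. For these age counts too, the share of all genes called is not given here. Line-specific members numbered 9 on TPM, 70 on median-of-ratios, 12 without a filter, 70 with weights and 34 with only the compared groups. They numbered 17 relative to the family sum, and 9 or 10 with copies at 95% or 98%. The share of all genes that met the line-specific rule is not given here for any of these settings.

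Directions turned with copies at 95% and 98% for Rpl34 (uninduced −0.53 and −0.53, 1 week −0.78 and −0.78, Esr1 age −0.22 and −0.22, age difference 0.04 and 0.04), Rpl35a (uninduced 0.01 and 0.01, long induced 0.03 and 0.04) and Rpl30 (long induced 0.07 and 0.07). Relative to the family sum they turned for Rpl29 at 1 week (0.01) and Rpl15 long induced (0.06). The cause of these turns was not tested.

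Deviations of same-numbered libraries correlated by −0.42 to 0.32 (median 0.01), and those of other-numbered libraries by −0.47 to 0.47 (median −0.01). Of 48 libraries, 22 correlated best with their own number. These values do not settle whether replicate numbers mark a pairing. With a replicate block the model counts were 18, 49 and 16, and no other count changed. The share of all genes called with the block is not given here. The correlation of Rpl3l with Acta1 and the ratio of family levels (0.78, CYP19A1 over Esr1 medians; 0.66 to 0.80 under the alternatives) kept their direction.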
